A study of Mus musculus with 6 samples.

Results

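Olfactory receptor genes are the subject here, as they appear in an H3K9me3 CUT&Tag data set of mouse bone marrow cells. The members are the autosomal regions whose nearest gene, in the annotation deposited with the regions, has a symbol starting with Olfr. There were 726 such regions among 58511 in all, or among 57177 on autosomes, and they carried the names of 432 receptor genes. The cells were endothelial progenitor cells (EPCs), sorted from C57BL/6J bone marrow with magnetic beads for Sca-1 and CD31 and cultured in EGM-2 medium, from mice 8 weeks old. The 3 groups were cells of males (M-EPC), of females with ovaries (F-EPC) and of females ovariectomized at about 35 days of age (OVX-EPC), with 2 libraries each. The libraries of a group came from cells set aside in duplicate and nothing states that they are separate animals, so each p-value measures the spread between these libraries, which may be technical. The study asked whether this mark differs between EPCs of the sexes and after loss of the ovaries.

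H3K9me3 is trimethylated lysine 9 of histone H3, a mark of heterochromatin that binds HP1 proteins. Olfactory receptors are G protein-coupled receptors for odorants, and their genes form the largest gene family of the mouse, lying in clusters on most chromosomes. A mature olfactory neuron transcribes a single receptor allele, and the remaining receptor genes of that neuron are kept silent in chromatin that carries H3K9me3 and H4K20me3. In other tissues nearly all of these genes are silent. The clusters are AT-rich, lie at the nuclear lamina in many cell types and hold many repeats. CUT&Tag uses an antibody to bring a transposase to the mark, where it cuts and tags the DNA.

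The 3 sequences that follow are the middle 300 bases, read on the plus strand of mm10 from the RefSeq copy of that genome, of the distal intergenic regions on which the comparison of single regions turns. They are the 1 region that passed the adjusted test, the region with the most reads and the region, of those at least 90% unique and higher in OVX-EPC, whose p-value was smallest. Capitals mark bases covered by a 25-base word that occurs once in the genome. This is the length of the study's reads, so lower case marks bases where a read could not be placed by its own sequence.
Olfr212, chr6:116503014-116503313: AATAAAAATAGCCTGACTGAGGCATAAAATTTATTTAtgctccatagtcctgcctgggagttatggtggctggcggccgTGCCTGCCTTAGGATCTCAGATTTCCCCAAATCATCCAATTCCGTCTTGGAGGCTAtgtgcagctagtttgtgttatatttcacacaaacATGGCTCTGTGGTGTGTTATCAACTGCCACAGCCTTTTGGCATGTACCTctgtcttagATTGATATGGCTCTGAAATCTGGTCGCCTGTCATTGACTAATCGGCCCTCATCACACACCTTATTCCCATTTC
Olfr521, chr7:99758887-99759186: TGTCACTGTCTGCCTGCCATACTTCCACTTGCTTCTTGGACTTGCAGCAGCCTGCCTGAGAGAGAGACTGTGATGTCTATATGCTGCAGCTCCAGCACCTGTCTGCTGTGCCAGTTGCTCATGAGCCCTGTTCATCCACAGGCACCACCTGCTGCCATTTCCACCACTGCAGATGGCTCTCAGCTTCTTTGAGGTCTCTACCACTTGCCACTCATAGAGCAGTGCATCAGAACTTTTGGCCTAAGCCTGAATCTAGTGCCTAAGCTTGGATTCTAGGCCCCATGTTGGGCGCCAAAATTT
Olfr1350, chr7:6575910-6576209: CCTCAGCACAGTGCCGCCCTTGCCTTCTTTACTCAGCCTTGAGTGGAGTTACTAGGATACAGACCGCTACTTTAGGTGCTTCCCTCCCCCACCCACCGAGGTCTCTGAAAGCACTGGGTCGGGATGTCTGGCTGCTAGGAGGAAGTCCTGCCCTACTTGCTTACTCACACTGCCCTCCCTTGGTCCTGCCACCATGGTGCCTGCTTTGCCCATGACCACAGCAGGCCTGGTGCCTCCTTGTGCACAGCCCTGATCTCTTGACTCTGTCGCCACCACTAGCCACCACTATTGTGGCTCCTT
In the Olfr212 stretch 71.7% of the bases were in capitals and in the others 100%. CpG dinucleotides numbered 5 in the Olfr212 stretch, 1 in Olfr521 and 5 in Olfr1350. Soft-masked repeat sequence, marked as such in the reference, made up 63.5% of the whole Olfr212 region, 0% of the Olfr521 region and 6.25% of the Olfr1350 region.

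The values were recovered reads, that is, whole numbers of reads in each region obtained by undoing the scaling in the deposited tables. The M-EPC libraries held 494538 and 566265 reads in autosomal regions and the OVX-EPC libraries held 489207 and 534288. The F-EPC libraries had no reads after chr16:30557137 and chr3:110808853 in text order of the chromosomes. F-EPC was therefore used only in the 26999 autosomal regions up to the first of these points, called covered regions, which hold 209 of the members, all on chromosomes 1, 10, 11, 13, 14, 15 and 16. Among the markers of the sorted cells 1 of 10 (Kdr, a VEGF receptor) had a region in its promoter, and among the markers of blood cells 2 of 7 did (Itgam and Csf1r). The presence of this mark does not measure expression, so it does not check the cell type.

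The members were thinly covered, intergenic and spread over the known clusters. Of 1399 receptor genes that GENCODE M21 places on autosomes, 432 (30.9%) were the assigned gene of at least 1 region, and 40 of these were pseudogenes. A single region was assigned to 257 genes. Olfr1350 on chromosome 7 had the most, with 10 regions, followed by the pseudogene Olfr289-ps1 on chromosome 3 with 9, and by Olfr744, Olfr136 and Olfr822 with 6 each. By the authors' annotation 564 members (77.7%) were distal intergenic and 133 (18.3%) lay in promoters, within 3 kb of a start site, compared with 53.9% and 20.6% of the other autosomal regions. Another 14 lay downstream of a gene, 8 in introns, 6 in exons and 1 in a 3′ UTR. The median distance to the start site of the assigned gene was 6.35 kb, against 20.1 kb for the other autosomal regions, so the members lay nearer to a start site than other regions did. Few touched a receptor gene itself, since 119 overlapped a receptor gene body, 583 overlapped no gene and 24 overlapped only another gene.

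The assigned name did not always match the sequence under a region. The exonic region of Olfr57 at chr10:79064999-79065398 was in an exon of 2610008E11Rik, and that of Olfr18 at chr9:20347686-20348085 was in an exon of Zfp560, a zinc finger gene. The region in a 3′ UTR, assigned to Olfr1344, overlapped Smim17 and Gm20715. In contrast the exonic regions of Olfr400-ps1, Olfr1508, Olfr5 and Olfr53 lay in the receptor genes themselves.

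Member regions held more repeat sequence and fewer CpGs than the rest. Their median soft-masked share was 51.4% against 20.5% for the other autosomal regions, and their median number of CpGs was 2 against 4. The median share of unique 25-base words was 71.4% against 93.6%, and 25.6% of the members against 13.1% of the others had under 50% unique words. GC content was similar, at 47.8% against 48.5%. The 68 members within 1 kb of a start site had a median of 3 CpGs, against 27 in other such regions. Within the distal intergenic class the median soft-masked share was 57.2% in members and 35.5% in the others.

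Promoters of receptor genes were poor in CpG whether or not a region lay there. In the RefSeq promoter sequences of mm10, from 250 bases before to 50 after a start site, 942 receptor promoters had a median GC content of 35% and a median of 1 CpG, against 53% and 7 for all 31396 autosomal promoters. The homeodomain core TAATTA, the same on both strands and a motif of the factor class that includes Lhx2 and Emx2, was in 18.7% of receptor promoters and 5.27% of all autosomal ones. Of the 65 receptor genes with a region within 1 kb, 51 had a promoter in that table, and 11 of these (21.6%) held TAATTA, against 18.5% of the 891 receptor promoters without such a region. CCCNNGGG, a short form of the site of the Ebf factors that reads the same on both strands, was in 3.08% of receptor promoters and 13.9% of all. TAATTA holds only A and T, and the fixed bases of CCCNNGGG are only C and G. Both shares therefore depend on base content, which differed between these promoter sets as given above. Whether they differ beyond base content was not tested.

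Reads in member regions were fewer than in other regions, most of all in M-EPC. The members were 1.27% of the autosomal regions. They took 0.737% (Wilson 95% interval 0.714 to 0.762) and 0.864% (0.840 to 0.888) of the autosomal region reads in M-EPC, and 1.03% (1.00 to 1.06) and 1.11% (1.08 to 1.14) in OVX-EPC. The share was higher in both OVX-EPC libraries than in both M-EPC libraries, with means of 1.07% ± 0.0578 and 0.801% ± 0.0892 (SD, n = 2). The intervals cover counting error only. In covered regions, where 0.774% of the regions were members, the M-EPC share was 0.509% and 0.593%, the F-EPC share 0.715% and 0.637% and the OVX-EPC share 0.643% and 0.719%. F-EPC and OVX-EPC overlapped there, and both lay above M-EPC. In the 59 covered members with at least 90% unique words F-EPC and M-EPC overlapped, at 32.8 and 27.0 against 24.0 and 29.3 reads per region per 1000000 covered reads. No test was made on these shares. Without the 10 regions with the most reads, the M-EPC share was 0.669% and 0.792% and the OVX-EPC share 0.982% and 1.04%. These 10 took a larger share of the reads in M-EPC than in OVX-EPC, so leaving them out could only widen the difference.

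**Figure D1:**
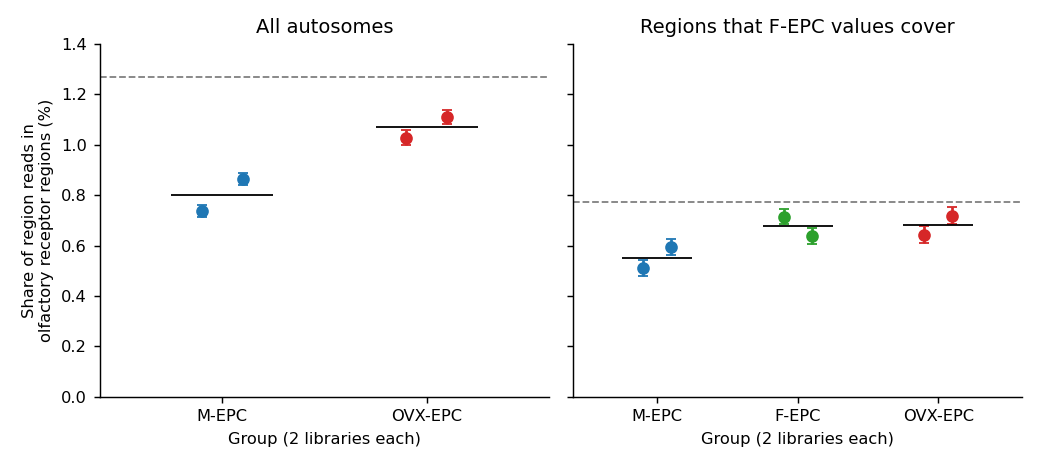
Share of autosomal region reads that fell in olfactory receptor regions, in percent, for each library (points) with Wilson 95% intervals (bars) and the group mean (black line), over all autosomes and over the regions with F-EPC reads. The dashed line is the share of regions that are members (1.27% and 0.774%); every library lies below it, and both M-EPC libraries lie below the libraries of the other groups.

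Single members held few reads. The median member had 4 and 6 reads for the M-EPC libraries and 6 and 7 in the OVX-EPC libraries, and 9.50% to 32.6% of the members reached 10 reads in a library, compared with 27.9% to 34.7% of all autosomal regions. Per region, members averaged 11.03 ± 1.23 reads per 1000000 autosomal region reads (RPM) in M-EPC and 14.7 ± 0.80 for OVX-EPC (SD, n = 2), while the other autosomal regions averaged 17.6 and 17.5. The ratio of OVX-EPC to M-EPC was 1.34 in members. Among classes of the annotation it was 1.35 in the 564 distal intergenic members, 1.37 in the 133 promoter members and 0.95 in the 8 intronic ones, where the groups overlapped. The same classes of other regions gave 1.09, 0.89 and 0.98. Promoter members carried 9.56 ± 1.32 RPM per region in M-EPC and 13.1 ± 0.37 for OVX-EPC, against 26.5 ± 2.05 and 23.6 ± 0.12 in the other promoters.

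In most of the 10 regions with the most reads the groups overlapped. Of these 10, 8 had a negative log2 fold change of OVX-EPC against M-EPC, including values near 0 in an Olfr57 region (-0.00) and an Olfr521 region (-0.05). Negative values were also the rule among strong regions in general. Among all 1897 autosomal regions with a normalized value of at least 30 in at least 2 libraries, 23.1% had a positive log2 fold change. Together the 10 regions took 0.0685% and 0.0715% of the autosomal region reads of the M-EPC libraries and 0.0460% and 0.0676% of those of the OVX-EPC libraries. Here and below, groups are called overlapping or not after the reads of each library were divided by its total. By that measure 2 of the 10 were lower in both OVX-EPC libraries, 1 was higher and 7 overlapped. The highest was a distal intergenic region of Olfr521, chr7:99758837-99759236, with 72 and 70 reads for M-EPC and 31 and 45 for OVX-EPC, lower in both OVX-EPC libraries. Olfr57 held 3 of the 10. Its exonic region had 43 and 56 reads for M-EPC, 58 and 41 for F-EPC and 38 and 64 for OVX-EPC. Both F-EPC libraries were below both M-EPC libraries, and OVX-EPC overlapped with each. Its region downstream of a gene, chr10:79063242-79063641, had 46 and 45 reads for M-EPC, 48 and 34 for F-EPC and 21 and 44 for OVX-EPC. The remaining ones were 2 regions of Olfr212 on chromosome 6, a second region of Olfr521, and 1 each of Olfr338 on chromosome 2, Olfr15 on chromosome 16 and Olfr221 on chromosome 14. The Olfr338 region had 23 and 35 reads for M-EPC and 31 and 41 for OVX-EPC, higher in both OVX-EPC libraries, and only 15.2% of its 25-base words were unique.

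**Figure D2:**
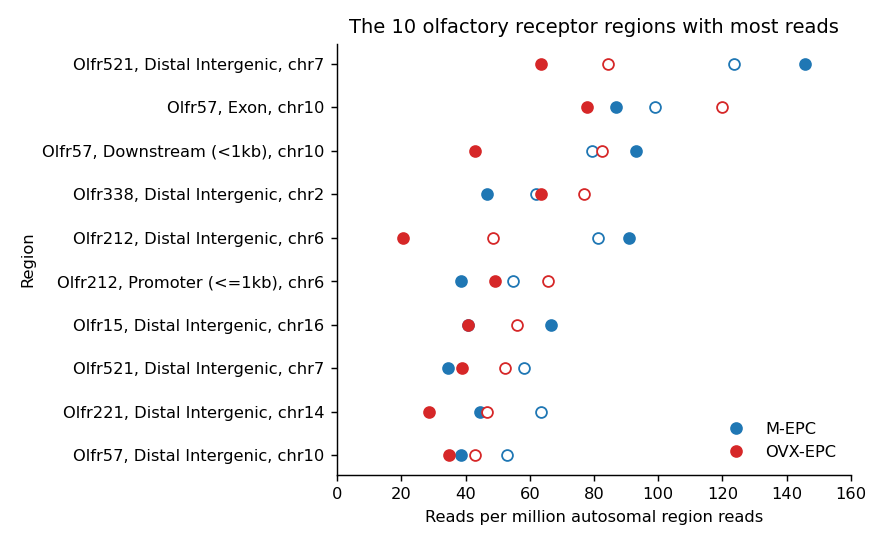
RPM (reads per 1000000 autosomal region reads) in the 10 olfactory receptor regions with the most reads, on a linear axis, for M-EPC (blue) and OVX-EPC (red), with replicate 1 filled and replicate 2 open. Labels give the assigned gene, the class in the authors' annotation and the chromosome; the upper Olfr521 region and the distal Olfr212 region are lower in both OVX-EPC libraries, and most of the others overlap.

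The strongest promoters were those of Olfr212, Olfr1273-ps, Olfr1235-ps1 and Olfr115, the middle pair being pseudogenes. The Olfr212 region within 1 kb of the start, chr6:116505251-116505650, held 19 and 31 reads for M-EPC and 24 and 35 for OVX-EPC, with overlap of the groups, and its region 2 to 3 kb away held 20 and 28 against 18 and 20, lower in both OVX-EPC libraries. The Olfr1273-ps promoter, chr2:90299512-90299911, held 21 and 20 reads for M-EPC and 13 and 22 for OVX-EPC. The Olfr1235-ps1 promoter held 14 and 20 against 7 and 18. The Olfr115 promoter, chr17:37628973-37629372, held 11 and 16 against 19 and 17, higher in both OVX-EPC libraries, with a log2 fold change of 0.40 ± 0.35 (SE) and an adjusted p of 0.586 by limma. None of these 5 regions passed the test.

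By position the members formed 26 clusters of 5 or more regions, defined as runs with gaps under 1 Mb, which held 681 of the 726. The largest, on chromosome 2 from 85.7 to 90.3 Mb, had 153 regions assigned to 105 receptor genes, of 263 receptor genes annotated in that span. It held 560 and 842 reads for M-EPC and 929 and 1035 for OVX-EPC, or 1310 ± 251 and 1918 ± 27.0 RPM (SD, n = 2), a ratio of 1.46. The second, on chromosome 10 from 129.0 to 130.2 Mb, had 72 regions and 327 and 451 reads for M-EPC against 478 and 563 for OVX-EPC, a ratio of 1.39. OVX-EPC was higher in both libraries in each.

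In 20 of the 26 clusters both OVX-EPC libraries were above both M-EPC libraries, in 1 both were below, and in 5 the groups overlapped. These counts are a description of levels and were not tested, and no like count was made for clusters of other regions. Of the 480 autosomal windows of 1 Mb with the lowest GC content, 57.3% passed as higher in OVX-EPC by limma, as described below. Other regions in those windows had a ratio of OVX-EPC to M-EPC of 1.42 without overlap, and members there 1.498. The ratio of OVX-EPC to M-EPC had a median of 1.38 over the clusters and was above 1 in 24. It was highest on chromosome 17 from 37.2 to 38.4 Mb (1.68), the cluster in the major histocompatibility region that ends with Olfr136. Its 38 regions held 174 and 263 reads for M-EPC and 339 and 361 for OVX-EPC. On chromosome 7 the cluster from 107.8 to 108.8 Mb, with Olfr478, came next at 1.66, with 142 and 204 reads against 245 and 307. The single cluster with lower reads was on chromosome 6 at 116.5 Mb, around Olfr212, with 7 regions and 126 and 162 reads for M-EPC against 94 and 120 for OVX-EPC, a ratio of 0.77. It and the clusters around Olfr57 and Olfr15 carried the most reads per region in M-EPC. The cluster on chromosome 13 around Olfr1364 had only 15 and 11 reads against 12 and 5.

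**Figure D3:**
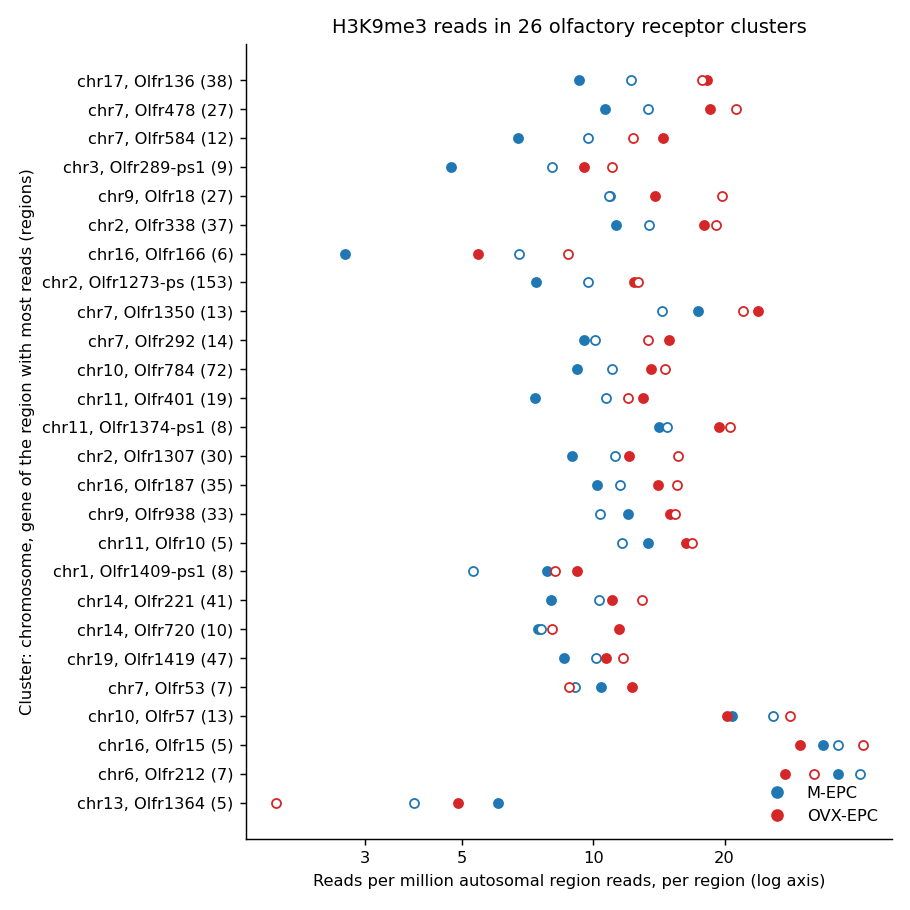
H3K9me3 RPM per region, on a log axis, in the 26 clusters of olfactory receptor regions, for M-EPC (blue) and OVX-EPC (red), replicate 1 filled and replicate 2 open. Rows give the chromosome, the gene of the region with the most reads and, in brackets, the number of regions, ordered by the ratio of OVX-EPC to M-EPC from 0.68 at the foot to 1.68 at the top; in 20 clusters all red points lie to the right of the blue ones.

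The clusters differed in how densely they were covered. With receptor genes less than 1 Mb apart joined, GENCODE M21 gave 30 loci of 5 or more receptor genes, spanning 33.7 Mb and holding 1349 genes. They had 28.98 deposited regions per Mb, against 23.7 over all autosomes, and 2 of the loci, both on chromosome 4, had no member. The locus of 156 genes on chromosome 7 from Olfr543 to Olfr692 had only 12 members and 8.30 regions per Mb, while the locus of 46 genes on chromosome 2 from Olfr1275 to Olfr1319-ps1 had 30 members and 62.9 regions per Mb. The 53 members at loci of fewer than 5 receptor genes carried 17.5 ± 1.398 RPM per region in M-EPC and 17.2 ± 2.06 for OVX-EPC, and the groups overlapped. The 673 members at larger loci carried 10.5 ± 1.21 and 14.5 ± 0.70, without overlap. Whether the 2 kinds of locus differed in this change was not tested.

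To determine which single members differed between OVX-EPC and M-EPC, limma was fitted to all 16931 regions that reached a normalized value of 10 in 2 of the 4 libraries. Only 128 of the 726 members did, and 1 passed at an adjusted p-value under 0.05, beside 0.449% of all regions tested. It was the distal intergenic region of Olfr212 at chr6:116502964-116503363, whose middle 300 bases are printed above. It held 45 and 46 reads for M-EPC and 10 and 26 for OVX-EPC, lower in both OVX-EPC libraries. The normalized signal was 45.0 ± 4.80 for M-EPC and 17.4 ± 10.2 for OVX-EPC (SD, n = 2), with a log2 fold change of -1.44 ± 0.33 (SE) with an adjusted p of 0.0404 by limma. Of its 25-base words 48.1% were unique. No member passed without M-EPC replicate 1, without M-EPC replicate 2 or without OVX-EPC replicate 1, nor with DESeq2 (0.0624% of all regions), and edgeR called 3, beside 0.723% of all regions. DESeq2 gave 11 members at an unadjusted p under 0.05, beside 3.05% of all regions.

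The Olfr521 region had the next smallest p among those lower. Its normalized signal was 70.3 ± 9.98 for M-EPC and 37.0 ± 7.90 for OVX-EPC, a log2 fold change of -0.92 ± 0.26 (SE) with an adjusted p of 0.114 by limma. The third was the Olfr57 region downstream of a gene, at -0.57 ± 0.30 and an adjusted p of 0.331 by limma. Among members with higher values, an Olfr1350 region at chr7:6575860-6576259 came first, with 4 and 4 reads for M-EPC and 16 and 16 for OVX-EPC. Its log2 fold change was 1.75 ± 0.52 with an adjusted p of 0.148 by limma, and 0.0474 by edgeR. An Olfr136 region at chr17:38349215-38349614 had 12 and 13 reads against 20 and 39, with 1.09 ± 0.35 and an adjusted p of 0.158 by limma, and 0.0479 by edgeR. In both regions the 2 OVX-EPC libraries were above both M-EPC libraries.

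Over all 726 members without a filter on low values, 499 (68.7%) had a positive log2 fold change, compared with 49.7% of all autosomal regions. The share was 57.7% in autosomal distal intergenic regions, the class of most members, and 33.6% in autosomal promoter regions. The median log2 fold change of the members was 0.40 and that of all autosomal regions -0.00. With the authors' scaling the median of all tested regions was below 0, and with TMM factors from the tested regions it was -0.00 and that of the members 0.56. Among regions that reached the filter the median was 0.40 in the 128 members and -0.17 in all autosomal regions, a difference of 0.58. A score for each library, the median of centred values in members minus that in all regions, had a pooled SD of 0.10 between the 2 replicates of a group. At an unadjusted p under 0.05 there were 25 higher and 2 lower members, or 19.5% and 1.56% of those tested, beside 5.07% and 11.1% of all regions. Both OVX-EPC libraries were above both M-EPC libraries in 59 members (46.1%), beside 16.9% of all regions. A weak member passes the filter more easily when 1 group is high, so the filtered medians, their difference and these shares describe the tested regions only. Across chromosomes the members with a higher mean in OVX-EPC were 169 of 220 on chromosome 2, 58 of 85 on chromosome 10, 59 of 80 on chromosome 7, 45 of 60 on chromosome 9 and 34 of 42 on chromosome 17. They were 4 of 10 on chromosome 6, 2 of 5 on chromosome 13 and 1 of 3 on chromosome 15. These counts rest on group means and not on the sign of the log2 fold change counted above. No like share was taken over other regions of those chromosomes.

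Reads of all regions with the same assigned gene were then summed, which gave 181 receptor genes to test among 12998 genes. With 3 receptor genes passing and 0 of them lower, 1.66% were called, beside 4.09% of all genes. Olfr136, a receptor gene at the end of the chromosome 17 cluster, held 41 and 52 reads for M-EPC and 84 and 117 for OVX-EPC over 6 regions, a log2 fold change of 1.08 ± 0.23 (SE) with an adjusted p of 0.00164 by limma. Olfr199 on chromosome 16 held 12 and 13 against 26 and 50 over 5 regions, with 1.45 ± 0.33 and an adjusted p of 0.00343 by limma. Olfr357 on chromosome 2 held 9 and 3 against 18 and 20 over 2 regions, with 1.64 ± 0.52 and an adjusted p of 0.0470 by limma. In each of the 3 genes both OVX-EPC libraries were above both M-EPC libraries. Without OVX-EPC replicate 2 no receptor gene passed, without M-EPC replicate 2 there were 8, and DESeq2 called 1, beside 1.6% of all genes. Of all genes 270 were higher and 261 lower, or 344 and 42 with TMM factors from the tested regions, which left 3 receptor genes higher and 0 lower.

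The genes with the most regions showed the same spread of values. Olfr1350 held 91 and 87 reads for M-EPC and 124 and 135 for OVX-EPC over its 10 regions, with a log2 fold change of 0.52 ± 0.20 and an adjusted p of 0.105 by limma. Olfr289-ps1 held 21 and 41 reads for M-EPC and 42 and 53 for OVX-EPC, with 0.66 ± 0.28 and an adjusted p of 0.145. Olfr744 held 23 and 41 against 32 and 51, and Olfr822 held 16 and 27 against 21 and 29, both with overlap. Olfr521, with 89 and 103 reads for M-EPC and 50 and 73 for OVX-EPC, was the receptor gene with the smallest p among those lower, at -0.67 ± 0.22 and an adjusted p of 0.0594 by limma.

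Summed over windows of 1 Mb, the receptor clusters gave more reads for each value. In 18 of 2400 windows members made up a share of at least 0.5 of the deposited regions. Of these 18, 12 passed as higher in OVX-EPC and 0 as lower (66.7%), beside 31.0% of all windows in either direction, which were 400 higher and 345 lower. With TMM factors from the tested regions 12 receptor windows were higher and 0 lower, against 427 and 61 of all windows. The window from 38 to 39 Mb of chromosome 17, with Olfr129 to Olfr136, held 113 and 188 reads for M-EPC and 247 and 293 for OVX-EPC, or 280.2 ± 73.2 and 527 ± 30.8 RPM (SD, n = 2). Its log2 fold change was 0.87 ± 0.15 (SE) with an adjusted p of 0.000192 by limma. The window from 87 to 88 Mb of chromosome 2, with Olfr1103-ps1 to Olfr1158, held 191 and 294 against 404 and 395, with 0.74 ± 0.13 and an adjusted p of 0.000213. That from 19 to 20 Mb of chromosome 9, with Olfr835 to Olfr77, held 111 and 154 against 181 and 273, with 0.75 ± 0.16 and an adjusted p of 0.000828. In these 3 windows both OVX-EPC libraries were above both M-EPC libraries.

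The other 9 windows that passed were on chromosomes 2 (from 86, 88 and 89 Mb), 7 (from 103 and 108 Mb), 9 (from 38 Mb), 10 (from 129 Mb), 17 (from 37 Mb) and 19 (from 13 Mb), with log2 fold changes between 0.44 and 0.87. The single window with a negative value was that from 12 to 13 Mb of chromosome 19, with 181 and 203 reads for M-EPC and 170 and 186 for OVX-EPC, a log2 fold change of -0.12 ± 0.14 and an adjusted p of 0.515 by limma. The windows from 50 Mb of chromosome 14 and from 58 Mb of chromosome 16 also had small values, at 0.10 ± 0.12 and 0.01 ± 0.14. The number of olfactory receptor windows called was 5 without M-EPC replicate 1, 12 without M-EPC replicate 2, 7 without OVX-EPC replicate 1 and 3 without OVX-EPC replicate 2, all higher. These counts show only how the calls depended on single libraries, since no share of all windows is set beside them. When only regions with at least 90% unique words were summed, 5 of 17 windows passed, beside 15.4% of all.

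The base composition of the windows moved with this result. The 18 windows had GC contents from 36.3% to 41.1%, and 11 were in the GC quintile of windows with the lowest GC content, of which 10 passed as higher. In that quintile 57.3% of all 480 windows passed as higher, against 17.1% in the next and 0.417% in the highest. Among the 1004 other windows within the GC range of the olfactory receptor windows, 32.6% passed as higher and 3.39% as lower. After a smooth trend of the log2 fold change on GC content was removed, 2 of the 18 passed, beside 9.04% of all windows. They were those from 108 Mb of chromosome 7 (0.41, adjusted p 0.0258 by limma) and from 37 Mb of chromosome 17 (0.36, adjusted p 0.0385). The window from 38 Mb of chromosome 17 then had 0.32 with an adjusted p of 0.1005. Of the 12 windows 10 did not pass on this scale, and 6 of the 12 had a log2 fold change below 0, down to -0.10 in the window from 86 Mb of chromosome 2.

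**Figure D4:**
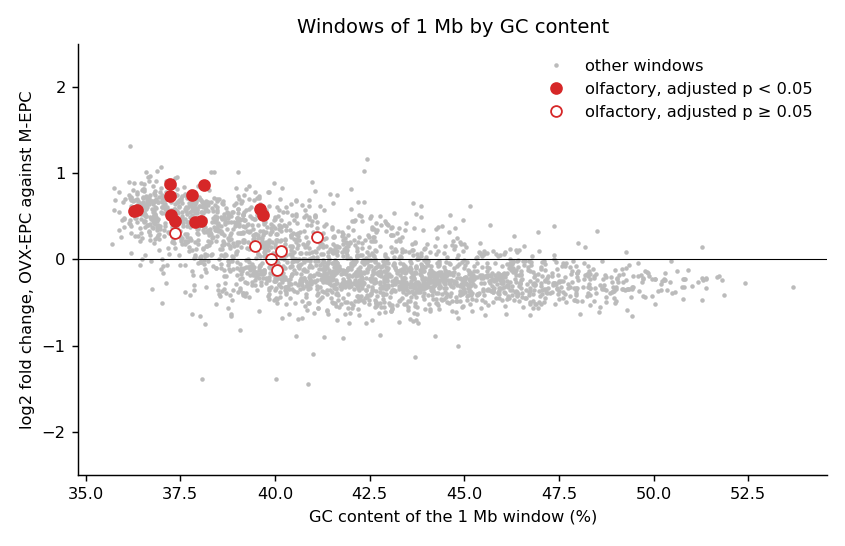
Log2 fold change of OVX-EPC against M-EPC (log2(value + 1) scale) for 2400 autosomal windows of 1 Mb against the GC content of the window in percent. Red points are the 18 olfactory receptor windows, filled for the 12 with an adjusted p under 0.05, and grey points are the other windows; the red points lie between 36.3% and 41.1% GC, where many grey points are also above 0.

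Regions were also grouped by the GC content of the window around them. In the lowest quintile, which held 354 members (48.8%), members averaged 9.15 ± 1.33 RPM in M-EPC and 13.7 ± 0.75 for OVX-EPC, a ratio of 1.498, and the 11554 other regions averaged 9.71 ± 1.22 and 13.7 ± 0.27, a ratio of 1.42. In the next quintile the ratios were 1.39 in 172 members and 1.10 in the others, in the third 1.152 and 0.98, in the next 1.22 and 0.92, and in the highest 1.03 and 0.89. Over all autosomes the ratio of members was above that of other regions in each quintile, but the difference was not tested and the 2 highest held only 45 and 47 members. In covered regions the order was reversed in the lowest quintile, with a ratio of OVX-EPC to M-EPC of 1.354 in members and 1.399 in the others. Members stayed above the others in the remaining quintiles of covered regions. Inside the spans of the larger loci, members had a ratio of 1.397 and the 342 regions assigned to other genes 1.04. Inside the olfactory receptor windows the ratio was 1.49 in members and 1.25 in the 173 other regions, which also rose without overlap.

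**Figure D5:**
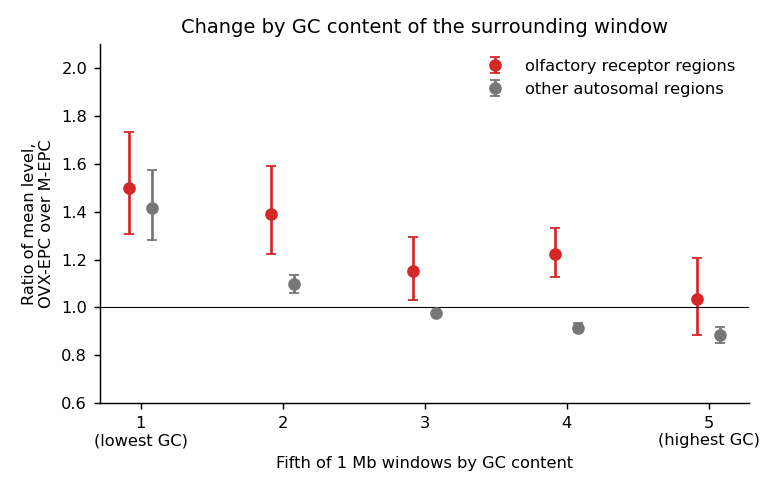
Ratio of the mean level per region in OVX-EPC to that in M-EPC, for olfactory receptor regions (red) and other autosomal regions (grey), by quintile of 1 Mb windows ranked by GC content. Points are ratios of group means and bars span the 4 ratios of 1 OVX-EPC library to 1 M-EPC library; in the lowest quintile the ratios are 1.498 and 1.42, and the bars overlap.

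In covered regions both female groups could be set against M-EPC. To determine whether the groups of females differed from M-EPC alike, the 209 covered members were compared, with M-EPC libraries shared by both contrasts. In F-EPC against M-EPC 0 of 46 members tested passed, beside 1.79% of 8139 regions, and 3 had an unadjusted p under 0.05 by limma and 0 by DESeq2. None passed by edgeR, which gave 10 at an unadjusted p under 0.05. Background shares at that p were 22.8% for limma, 4.54% for DESeq2 and 22% for edgeR. An Olfr784 region at chr10:129373060-129373459 had 5 and 12 reads for M-EPC, 17 and 24 for F-EPC and 9 and 25 for OVX-EPC, with a log2 fold change of 0.91 ± 0.41 for F-EPC against M-EPC and an adjusted p of 0.191 by limma. An Olfr1374-ps1 region at chr11:51149385-51149784 had 19 and 20, 39 and 40, and 21 and 28, with 0.60 ± 0.30 and an adjusted p of 0.224. An Olfr15 region at chr16:3806655-3807054 had 10 and 10, 29 and 17, and 11 and 18, with 0.71 ± 0.37 and an adjusted p of 0.243. Among members with lower values, the 3 with the smallest p were Olfr57 regions, at -0.80 ± 0.33, -0.55 ± 0.26 and -0.39 ± 0.24. Their adjusted p-values were 0.164, 0.210 and 0.331 by limma.

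Without the filter, 143 of the 209 covered members (68.4%) had a positive log2 fold change in F-EPC against M-EPC, compared with 52.9% of all covered regions, with medians of 0.29 and 0.05. In covered distal intergenic regions 61.2% were positive, with a median of 0.21, and in covered promoter regions 32.0%, with a median of -0.30. Of the 11 covered clusters, 7 had both F-EPC libraries above both M-EPC libraries, 0 had both below and 4 overlapped. No like count was made for clusters of other regions. In the lowest GC quintile the ratio of F-EPC to M-EPC was 1.49 in other covered regions and 1.32 in covered members. The chromosome 10 cluster from 129.0 to 130.2 Mb held 1775 ± 201 reads per 1000000 covered reads in M-EPC, 2339 ± 170 for F-EPC and 2404 ± 166 for OVX-EPC (SD, n = 2). F-EPC and OVX-EPC overlapped in it and both exceeded M-EPC. Its window from 129 to 130 Mb passed as higher in F-EPC, with 325 and 428 reads for M-EPC and 679 and 590 for F-EPC, a log2 fold change of 0.37 ± 0.11 and an adjusted p of 0.0143 by limma, beside 48.7% of the 924 windows. It did not pass without F-EPC replicate 1, without F-EPC replicate 2 or after removal of the GC trend, which turned its log2 fold change to -0.13. The other covered window, from 50 Mb of chromosome 14, had -0.06 ± 0.13.

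Among the 52 receptor genes tested in this contrast 1 passed (1.92%), beside 11.6% of all genes. It was Olfr57, lower in F-EPC, with 108 and 136 reads for M-EPC, 125 and 96 for F-EPC and 78 and 142 for OVX-EPC over 4 regions. As a share of covered reads both F-EPC libraries were below both M-EPC libraries. The log2 fold change was -0.53 ± 0.18 (SE) with an adjusted p of 0.0435 by limma. No receptor gene passed without F-EPC replicate 1 or replicate 2 or with DESeq2, and without M-EPC replicate 2 there were 2. Olfr57 was not called with TMM factors from the tested regions, with scaling to total reads or with edgeR, where the receptor genes called (2, 2 and 3) were all higher in F-EPC. As given above, the strongest of these regions lies in an exon of 2610008E11Rik, so the name Olfr57 rests on the assignment.

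No member passed in OVX-EPC against F-EPC. By limma 0 of 60 regions, 0 of 58 genes and 0 of 2 windows passed, beside 0.0127% of 7897 regions, 0.0188% of 5307 genes and 0% of 924 windows, and 2 regions, 1 gene and 0 windows had an unadjusted p under 0.05, against 1, 0 and 0 by DESeq2 and 3, 1 and 0 by edgeR. The background shares at that p were 6.22% of regions, 7.29% of genes and 9.63% of windows by limma, 0.535%, 1.36% and 1.62% by DESeq2, and 6.63%, 6.66% and 10.5% by edgeR. Without the filter 105 of the 209 members (50.2%) were positive, and the medians were 0.00 in members and -0.02 in all covered regions. The smallest p was that of an Olfr401 region on chromosome 11, chr11:74126441-74126840, with 7 and 10 reads in F-EPC and 16 and 16 for OVX-EPC, a log2 fold change of 1.17 ± 0.40 and an adjusted p of 0.768 by limma. An Olfr782 region at chr10:129355017-129355416 had 5 and 3 reads against 10 and 20, with 1.93 ± 0.70 and an adjusted p of 0.768. An Olfr744 region at chr14:50594404-50595062 had 15 and 11 against 12 and 24, higher in both OVX-EPC libraries. Among the lower ones an Olfr15 region at chr16:3805870-3806269 had 49 and 39 reads in F-EPC and 20 and 30 for OVX-EPC, at -0.48 ± 0.28 with an adjusted p of 0.828 by limma. Olfr10 and Olfr1508 regions had -0.42 ± 0.28 and -0.61 ± 0.41, with adjusted p-values of 0.841 each.

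The genes that work with the receptors gave no call. A list of 35 genes held those of odorant transduction (such as Gnal, the G protein alpha subunit that receptors couple to, Adcy3, the adenylyl cyclase, and Cngb1, a channel subunit), of receptor trafficking (Rtp1, Reep1) and of receptor choice and its chromatin (Lhx2, Ebf1, Atf5, Kdm1a, Setdb1, Cbx3, Lbr). Of these, 23 had a region, 46 in all, and 7 had a region in a promoter. In OVX-EPC against M-EPC 0 of 18 regions and 0 of 15 genes tested passed, by limma, beside 0.449% of all regions and 4.09% of all genes. In F-EPC against M-EPC 0 of 6 and 0 of 5 passed, beside 1.79% and 11.6%. In OVX-EPC against F-EPC 0 of 4 and 0 of 4 passed, beside 0.0127% and 0.0188%. So few were tested that the absence of calls says little about the list. Lbr, the lamin B receptor, which tethers heterochromatin to the nuclear envelope, had the smallest p of a region in OVX-EPC against M-EPC. Its 2 regions held 25 and 27 reads for M-EPC and 15 and 18 for OVX-EPC, with a log2 fold change of -0.64 and an adjusted p of 0.254 for the sum. Gnal held 20 and 24 reads for M-EPC and 30 and 27 for OVX-EPC, with 0.35 and an adjusted p of 0.537. Omp, the marker of mature olfactory neurons, and Lhx2 had no region.

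Other clustered families gave a measure of how far these values stand apart. Vomeronasal receptor genes, the receptors for pheromones, had 354 regions with a ratio of OVX-EPC to M-EPC of 1.35, close to the 1.34 of the olfactory receptors, and 73.4% of them had a positive log2 fold change without the filter. Of 98 tested, 0 passed, with 15 higher and 1 lower at an unadjusted p under 0.05. Taste receptor genes had 31 regions, 74.2% of them positive. Zinc finger genes named Zfp, many of which carry this mark over their 3′ ends, had 914 regions with a ratio of 0.88 and 31.1% positive, and 1 of 593 tested passed, as lower. Their level was 41.0 ± 1.61 RPM per region in M-EPC, against 11.03 ± 1.23 in olfactory receptor regions. In covered regions against M-EPC, F-EPC gave positive values in 77.05% of 61 vomeronasal and 18.6% of 236 zinc finger regions.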

How the data were processed

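H3K9me3 CUT&Tag was measured in 6 libraries. According to the methods the authors aligned 25-base read pairs to mm10 with Bowtie2 (the submitters' processing notes list BWA and MACS2), removed duplicates and reads of low mapping quality, and called and annotated peaks, steps that thin the reads of repeats. The deposited values are a normalized signal per region and library. Per the file headers, the authors also gave a log2 fold change and p-value for each comparison, which were not used. Multiplying each library's signal by 1 factor gave whole reads for 100% of values (tolerance 0.01).

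Members and gene lists were chosen with earlier results of these data known. The authors' signal was tested on log2(value + 1) with limma 3.58.1 (mean-variance trend, at least 10 in at least 2 of 4 libraries, Benjamini-Hochberg over all regions, genes or windows tested, 2 libraries against 2). A fold change on this scale understates that of weak regions. edgeR 4.0.16 and DESeq2 1.42.0 on recovered reads, other scalings, filters and pseudocounts, windows of 500 kb, a replicate block and leaving out each library were alternatives. Only the main limma, edgeR and DESeq2 fits were checked on simulated data. The simulated regions held more reads and larger changes than most members, and the other alternatives were not simulated. Named members are those passing the test, the 3 with the smallest p in each direction, the 10 with the most reads, the strongest in a cluster, the 5 strongest promoters and the genes with most regions. A member region that the rule names is not reported here. Of the strongest regions per cluster, those not singled out appear in the plot of clusters. Levels are reads per 1000000 autosomal region reads (RPM), or covered reads where F-EPC is included. Total counts in regions ran from 288353 to 573821 per library, so at a median of 4 to 8 reads a region single members are imprecise.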

Additional observations from a re-analysis of the deposited data

Results flagged for a closer look

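An Olfr782 region, chr10:129355017-129355416, was noted because the female groups moved in opposite directions from M-EPC. Olfr782 is an olfactory receptor gene of the chromosome 10 cluster. The region held 6 and 7 reads for M-EPC, 5 and 3 for F-EPC, and 10 and 20 for OVX-EPC. Per 1000000 covered reads both F-EPC libraries were below both M-EPC libraries and both OVX-EPC libraries were above them, and the mean of OVX-EPC exceeded that of F-EPC by 54.1. The region was picked for this pattern, so the pattern is not a test of it. F-EPC against M-EPC was not tested here, since the region did not reach the filter in that comparison. By limma OVX-EPC against M-EPC had an adjusted p of 0.290 and OVX-EPC against F-EPC one of 0.768. Whether the 2 changes from M-EPC differed was not tested otherwise. Only 33.5% of the 25-base words of the region were unique.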

How the results depend on the processing

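For OVX-EPC against M-EPC, the count of member regions called, 1 as reported, was 0 with TMM factors from the tested regions, 0 in regions at least 90% unique, 0 with a pseudocount of 0.1 and 0 with DESeq2. It was 2 with a minimum of 30 and with edgeR on DESeq2 size factors, and 3 with edgeR on TMM factors. Leaving out 1 library gave 0 to 1. Receptor genes called, 3 as reported, were 1 with DESeq2 and 0 to 8 when 1 library was left out. Windows called, 12 as reported, were 2 after removal of the GC trend, 5 in unique regions and 3 to 12 without 1 library. For F-EPC against M-EPC, receptor genes called, 1 (lower) as reported, were 2 with TMM factors from the tested regions and with scaling to total reads and 3 with edgeR, all higher, so that the direction of the called genes turned. They were 0 with DESeq2 and 0 to 2 without 1 library. The 1 window called was 0 after removal of the GC trend and 0 to 1 when 1 library was left out. The TMM factors from the tested regions, the GC trend and the unique regions were chosen after seeing the data.

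The median log2 fold change of members minus that of all regions tested was 0.58 for OVX-EPC against M-EPC. It was 0.44 with a pseudocount of 5, 0.40 without a filter, 0.71 in unique regions and 0.32 to 0.66 without 1 library. With a minimum of 30 only 5 members were tested, and it was -0.31. For F-EPC against M-EPC (0.40) the values in the same order were 0.30, 0.23, 0.31, 0.15 to 0.60, and 0.66 with a minimum of 30. For OVX-EPC against F-EPC (0.03) it was 0.27 in unique regions, -0.43 with a minimum of 30 and -0.062 to 0.26 when 1 library was left out. In unique regions members took a smaller share of reads (0.547% ± 0.0104 for OVX-EPC and 0.400% ± 0.0655 for M-EPC), and its difference was 0.147 percentage points for OVX-EPC against M-EPC (0.269 in all members) and 0.0525 for F-EPC against M-EPC (0.125). A minimum of 30 tested fewer members by construction; otherwise the cause was not tested.

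The replicate numbers did not pair the libraries, as deviations of like-numbered libraries from their group means correlated at -0.02, -0.05 and -0.03 over regions in the 3 comparisons. With the replicate number as a block, 1 region, 2 genes and 11 windows were called for OVX-EPC against M-EPC, and 0 genes and 0 windows for F-EPC against M-EPC. Under the alternatives 128 values of the counts, medians and shares stayed within 1.5 times the reported count or within 1 SD between replicates, and 50 did not. The only named region called as reported was that of Olfr212, and its fold change did not change sign.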
